A study of Mus musculus with 27 samples.

Results

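The comparison described here set bone marrow-derived macrophages (BMDM) stimulated once with Pam3CSK4 (acute) against BMDM stimulated with the same ligand a second time (re-stimulated). Its members were chosen from the sample labels alone: the arrays titled as Pam3CSK4 acute and Pam3CSK4 tolerance that have deposited normalized values, which are 5 of the 25 arrays with such values and of the 27 in the whole series. The 2 acute arrays (replicates 1 and 3) were from cells given 100 ng/ml Pam3CSK4 for 4 h, and the 3 re-stimulated arrays (replicates 1, 2 and 3) from cells given it for 24 h, washed, and given it again for 4 h at the same concentration. All cells of the study were BMDM of female C57BL/6 mice aged 6 to 8 weeks, grown out for 7 days in L929-conditioned medium, and the naïve group (3 arrays) received no ligand. The groups set beside these were the acute and re-stimulated cells of LPS (100 ng/ml), Poly(I:C) (10 µg/ml) and CpG DNA, for which the label gives 100 µM and the methods a lower concentration.

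Every culture was read on an array of its own with a single dye, and the number of arrays limits the precision. The third acute array, replicate 2, has no deposited values and is described by its depositors as of low quality. In its scanner file 99.9% of the probes were marked well above background and 22.6% of the spots as non-uniform, against 48.1% and 49.9% of the probes on the other acute arrays and 45.0%, 43.1% and 45.7% on the re-stimulated arrays. It enters 1 of the alternatives only. Naïve replicate 3 also stood apart, with 74.9% of its probes well above background. Each replicate number was 1 slide, except for acute LPS, so that acute and re-stimulated cells of replicates 1 and 3 shared a slide.

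Pam3CSK4 is a synthetic triacylated lipopeptide that is recognised by TLR2 together with TLR1 on the cell surface. The receptor pair signals through the adapters MyD88 and TIRAP and the IRAK kinases to NF-κB and the MAP kinases, and cytokine, chemokine and feedback inhibitor genes are its best known targets. Macrophages that meet a TLR ligand again after a first exposure transcribe part of these genes less and others as much or more, a state known as tolerance.

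All values below are the deposited log2 intensities, and a difference is the re-stimulated mean minus the acute mean on that scale. Of 55681 probes on the array, 25430 were tested, those marked well above background on 2 or more arrays of the acute or of the re-stimulated group. A probe was called when its adjusted p was under 0.05 (limma, fitted to all 25 arrays in 9 groups) and its change at least 1.5-fold. In re-stimulated cells 532 probes were lower (2.09% of those tested) and 442 were higher (1.74%), together 3.83%, with a median difference over all tested probes of 0.02. By gene, with the brightest tested probe of each of 11664 named genes, 300 genes fell (2.57%) and 184 rose (1.58%). The 2 groups did not overlap for 973 of the 974 called probes, against 31.8% of all tested probes, which is a description, since the call itself favours such probes. Among the called probes the falls had a median size of 1.64 and the rises of 1.15 on the log2 scale. The median differences were -2.08 and 1.38 on the slide of replicate 1 but -1.13 and 1.01 on that of replicate 3, and the largest fold was 42.6 among the falls and 92.4 among the rises.

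These counts rested on the spread borrowed from the other groups. When only the 5 Pam3CSK4 arrays were fitted, limma called 0 probes (smallest adjusted p = 0.128), although 1802 fell and 1561 rose by the fold minimum at an unadjusted p under 0.05, and with the replicate number as a block it also called 0 (1610 and 1591 at an unadjusted p under 0.05). In the fit of all 9 groups the block raised the counts to 923 lower and 866 higher, and the slide as a random block to 1078 and 1037, and both included all 532 and all 442. Leaving out an array moved them to 143 lower and 67 higher without acute replicate 1, 133 and 110 without re-stimulated replicate 1, 313 and 308 without re-stimulated replicate 2, and 525 and 327 without acute replicate 3. Without re-stimulated replicate 3 they were 791 and 621, and without naïve replicate 3 they were 706 and 613. Without the LPS arrays they were 350 and 270. Median scaling in place of quantile normalization moved the median of all probes to 0.39 and left 65 lower and 85 higher, so that 56.7% of the calls were rises in place of 45.4%.

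**Figure D1:**
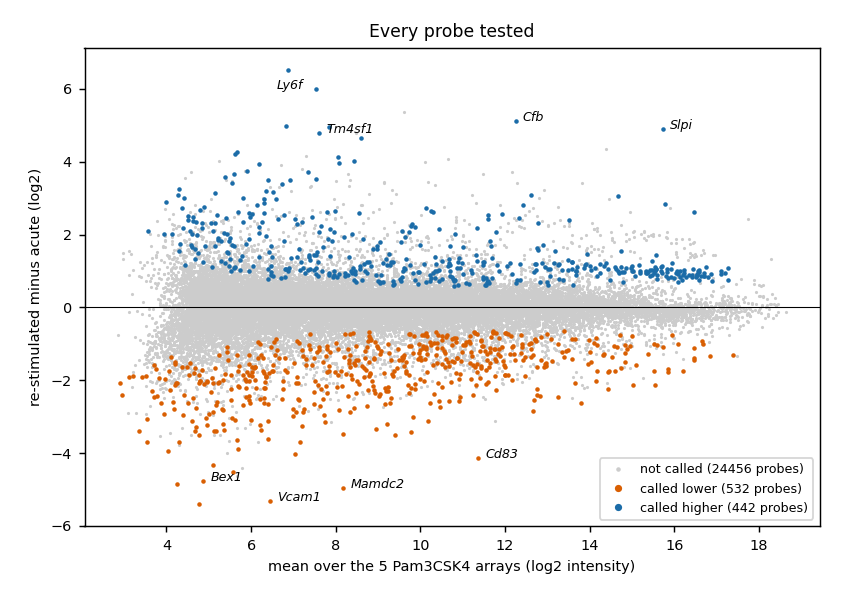
Difference between re-stimulated and acute cells (log2, vertical axis) against the mean over the 5 Pam3CSK4 arrays (log2 intensity, horizontal axis), 1 point per tested probe. The 532 probes called lower (orange) and 442 called higher (blue) spread over the whole intensity range, and Vcam1, the largest fall among the named genes in this fit, has a difference of -5.31.

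Probe counts were not gene counts. Several called probes shared stretches of sequence, and 32 of the 442 higher probes were linked through shared runs of at least 20 bases to each other and to a probe for Gapdh, the glycolytic enzyme whose pseudogenes are many in the mouse genome. Their differences lay between 0.73 and 1.20. Of 8 tested probes named Gapdh, 5 were called higher, and the brightest, with a difference of 0.28, was not. Linked in the same way, the 442 higher probes formed 371 groups and the 532 lower probes 503. The largest group of lower probes held 19, named among others for Pdcd4, Snap25, Oprm1 and Slc17a5, and which transcript these probes measured is uncertain.

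Genes of innate defence were among the largest rises. Cfb, complement factor B of the alternative pathway, measured 9.92 and 8.45 in acute and 14.72, 13.79 and 14.38 in re-stimulated cells, a 34.6-fold rise (adjusted p = 0.000184). That was the smallest adjusted p, and other probes shared it. Slpi, a secreted inhibitor of leukocyte proteases, measured 13.37 and 12.23 and then 18.48, 16.65 and 17.93, a 29.5-fold rise (adjusted p = 0.000558). Cfb had 5.67, 6.04 and 6.98 in naïve cells, below both acute arrays. Ly6f and Ly6i, which encode small membrane-anchored surface proteins, were among the 12 largest rises. Ly6f measured 5.77 and 2.11 in acute and 11.28, 10.77 and 7.79 in re-stimulated cells (adjusted p = 0.0398). Ly6i measured 6.44 and 5.16 and 11.54, 11.10 and 8.76 (adjusted p = 0.0123). In both genes replicate 3 was lowest of the re-stimulated arrays. Both calls were lost without acute replicate 1 or 3 or re-stimulated replicate 1, and that of Ly6f also without re-stimulated replicate 2.

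The other large rises were in genes of several kinds. Smad6, an inhibitory Smad of the BMP and TGF-β pathways, measured 6.81 and 4.32 in acute and 9.89, 9.38 and 9.83 in re-stimulated cells (difference 4.14 ± 1.01 SE, adjusted p = 0.0288). Id1, an inhibitor of helix-loop-helix transcription factors and a known BMP target, measured 6.47 and 5.56 and 9.42, 9.96 and 10.76 (difference 4.03 ± 0.83 SE, adjusted p = 0.0119). The re-stimulated arrays of Smad6 lay close together while its acute arrays were spread, and both calls were lost without either acute array, that of Smad6 also without re-stimulated replicate 1 or 2. Tm4sf1, a tetraspanin-like membrane protein, measured 5.53 and 3.94 and 10.18, 8.52 and 9.87 (adjusted p = 0.00277). Mmp2, a gelatinase, measured 3.99 and 2.49 and 7.08, 7.57 and 5.85 (adjusted p = 0.00375). Ereg, the EGF receptor ligand epiregulin, measured 4.88 and 2.11 and 8.69, 6.28 and 5.78 (adjusted p = 0.0361). The call of Ereg was lost without acute replicate 3 or re-stimulated replicate 1. Antxr1, an anthrax toxin receptor, and Coro2b, an actin-binding coronin, rose by 3.72 and 3.49, and the call of Antxr1 was lost without acute replicate 3 or re-stimulated replicate 1 or 3. Of the rises named here, Ly6f, Tm4sf1, Mmp2, Ereg, Antxr1 and Coro2b were well above background on only 1 of the acute arrays, so that their differences rest in part on a dim signal. All 12 were also called higher than in naïve cells, where 9.83% of the tested probes were called higher and 8.99% lower.

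Among the genes named here, each by its brightest tested probe, the largest fall was that of Vcam1, the adhesion molecule that binds leukocyte integrins. It measured 11.15 and 8.09 in acute and 2.47, 3.98 and 6.49 in re-stimulated cells, a difference of -5.31 ± 1.19 SE (adjusted p = 0.0191). Only 1 of the re-stimulated arrays was well above background, so that the size rests on a dim signal, and the other of its 2 tested probes, with a difference of -2.86, was not called. The size differed between the slides, at -8.68 for replicate 1 and -1.60 for replicate 3, and the call was lost without acute replicate 1 or re-stimulated replicate 1 (adjusted p from 0.00529 to 0.394 over the alternatives). Naïve cells measured 5.79, 6.18 and 6.55. Cd83, a surface protein of activated antigen-presenting cells, measured 14.41 and 13.30 in acute cells and 9.18, 9.54 and 10.42 in re-stimulated cells, a 17.7-fold fall (adjusted p = 0.00201), and ended below naïve cells at 11.83, 12.57 and 12.91 (adjusted p = 0.00215). Mamdc2 measured 12.12 and 10.19 and then 5.85, 6.46 and 6.25 (adjusted p = 0.000911), with 12.67, 11.87 and 10.79 in naïve cells, so that naïve and acute arrays overlapped and every re-stimulated array was far below them.

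The other large falls were in genes of several kinds. Mgll, the lipase that breaks down the endocannabinoid 2-arachidonoylglycerol, measured 9.51 and 9.25 in acute and 4.35, 5.73 and 6.93 in re-stimulated cells (difference -3.71 ± 0.53 SE, adjusted p = 0.00143), and all 3 of its tested probes fell. Rasgef1a, an exchange factor for Ras proteins, measured 8.71 and 8.42 and 4.15, 4.92 and 5.82 (adjusted p = 0.000704). Both were spread over the re-stimulated arrays, with replicate 1 lowest and replicate 3 highest. Akap2 (Pakap in RefSeq), an anchoring protein for protein kinase A, measured 12.43 and 10.57 and 7.46, 8.07 and 8.46 (adjusted p = 0.00557). Bex1 was not well above background on any re-stimulated array and fell by at least 24.0-fold, from 9.40 and 6.07 in acute cells. The bound was 7.58-fold without acute replicate 1 and 76.0-fold without acute replicate 3. Over the 20 alternatives the difference of Bex1 ran from -6.44 to -2.12, so that the bound did not hold under all, and 10 lost the call. Its call was lost without acute replicate 1 or re-stimulated replicate 1 or 2, and that of Akap2 without acute replicate 1. Sox7, a transcription factor, fell from 6.15 and 7.197 to 2.81, 3.32 and 4.02 and Pcp4l1 from 11.03 and 10.89 to 6.81, 8.72 and 7.31, and both calls were lost without acute replicate 1 or re-stimulated replicate 1, that of Sox7 also without acute replicate 3. Sox7 was well above background on 1 of the 3 re-stimulated arrays.

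Gbp5 and Fam26f (Calhm6 in RefSeq), both known to be induced by interferon, fell mainly on 1 slide. Gbp5, a guanylate-binding GTPase, measured 13.42 and 10.23 in acute and 7.59, 7.75 and 9.86 in re-stimulated cells (adjusted p = 0.0188; its other tested probe, at -1.34, was not called), with differences of -5.84 in replicate 1 and -0.36 in replicate 3. Fam26f measured 9.52 and 6.78 and 3.61, 5.34 and 5.82 (adjusted p = 0.0269), with differences of -5.91 and -0.97. Hecw2, a ubiquitin ligase, was the most uneven, with 9.83 and 4.58 in acute cells. It was not well above background on any re-stimulated array and fell by at least 10.6-fold (adjusted p = 0.0333), a bound that was 1.72-fold without acute replicate 1 and 65.3-fold without acute replicate 3. The calls of these 3 genes were lost without acute replicate 1 or re-stimulated replicate 1, those of Gbp5 and Hecw2 also without re-stimulated replicate 2, and that of Hecw2 without re-stimulated replicate 3.

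**Figure D2:**
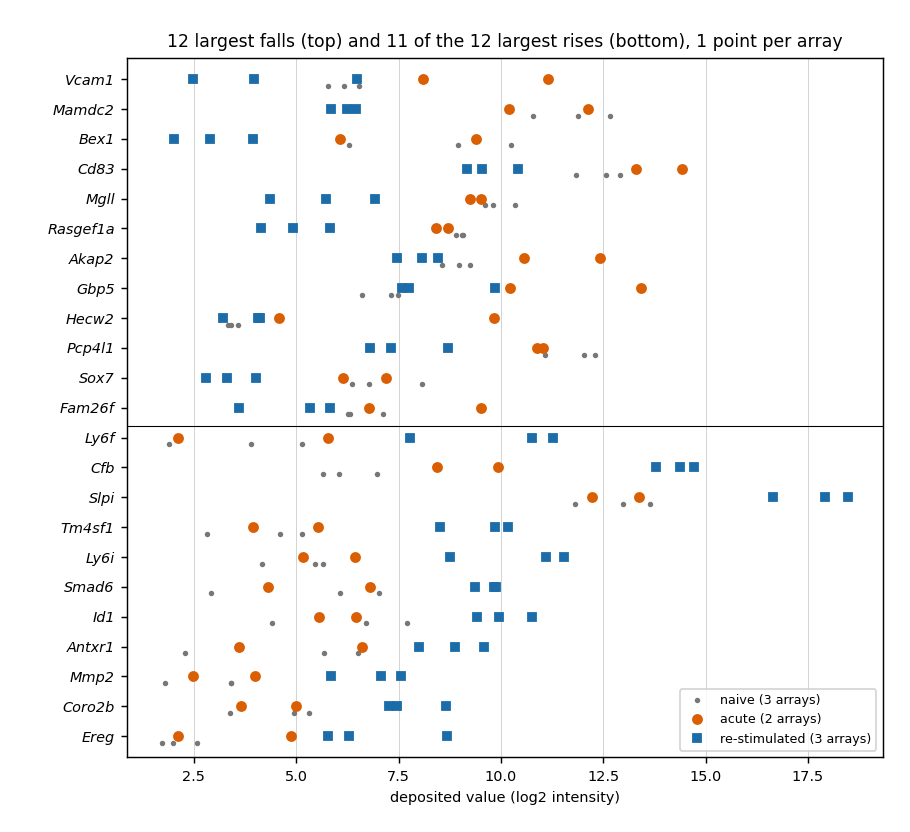
Deposited log2 intensity (horizontal axis) of the 12 genes with the largest falls and 11 of the 12 with the largest rises, 1 point per array: acute (orange circles, 2 arrays), re-stimulated (blue squares, 3 arrays) and naïve (grey dots, 3 arrays). Acute and re-stimulated arrays do not overlap for any of these 23, as the choice of genes requires, and the acute arrays of Hecw2, at 9.83 and 4.58, are the farthest apart.

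Acute replicate 1 was the stronger of the acute arrays among genes that fell. It was above acute replicate 3 for 410 of the 532 lower probes (77.1%), against 46.5% of all tested probes, and for 169 of the 442 higher probes (38.2%). Of the 12 largest falls, 8 lost their call without acute replicate 1, and of the 12 largest rises 4. Cd83, Mamdc2, Cfb, Slpi, Tm4sf1, Mmp2 and Coro2b kept theirs under 18 of 20 alternatives, losing it only in the fits of the 5 arrays alone.

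The promoters of genes that moved in opposite directions are shown to let a reader see which binding motifs of the TLR response they hold. The motifs searched on both strands were GGGA, any 2 bases and TTCC (NF-κB), GAAA, any 2 bases and GAAA (ISRE, bound by interferon-activated and IRF factors), TGANTCA (AP-1) and TGACGTCA (CRE), and they were found in 1.21%, 2.98%, 6.75% and 1.55% of 32851 mouse promoters of this length. A promoter was at hand for 13 of the 24 largest changes, and of these 13 Gbp5, Fam26f and Tm4sf1 held a match. The promoters of the other 11 were not searched. These are the 250 bases before the start of 2 genes that fell, Gbp5 (chr3:142496684-142496933, plus strand) and Fam26f (chr10:34127973-34128222, minus strand), of Tm4sf1, which rose (chr3:57301989-57302238, minus strand), and of Il6, which was not called (chr5:30012864-30013113, plus strand). They are from RefSeq on GRCm38.p6, 5′ to 3′, with the motifs in capitals.
Gbp5: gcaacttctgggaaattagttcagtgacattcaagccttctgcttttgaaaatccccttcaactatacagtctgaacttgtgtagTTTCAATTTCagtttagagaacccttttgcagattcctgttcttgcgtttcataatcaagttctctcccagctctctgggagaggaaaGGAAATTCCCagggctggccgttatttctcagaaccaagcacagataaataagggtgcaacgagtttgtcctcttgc
Fam26f: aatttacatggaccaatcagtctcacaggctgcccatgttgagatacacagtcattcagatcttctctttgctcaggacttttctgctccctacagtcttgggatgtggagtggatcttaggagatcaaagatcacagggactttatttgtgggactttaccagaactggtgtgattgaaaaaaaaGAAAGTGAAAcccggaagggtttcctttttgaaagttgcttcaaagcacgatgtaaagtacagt
Tm4sf1: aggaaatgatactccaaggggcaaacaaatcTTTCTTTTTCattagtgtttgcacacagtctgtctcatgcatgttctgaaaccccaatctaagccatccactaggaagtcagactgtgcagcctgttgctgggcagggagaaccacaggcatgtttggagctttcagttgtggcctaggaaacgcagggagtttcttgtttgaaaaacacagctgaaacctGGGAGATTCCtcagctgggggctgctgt
Il6: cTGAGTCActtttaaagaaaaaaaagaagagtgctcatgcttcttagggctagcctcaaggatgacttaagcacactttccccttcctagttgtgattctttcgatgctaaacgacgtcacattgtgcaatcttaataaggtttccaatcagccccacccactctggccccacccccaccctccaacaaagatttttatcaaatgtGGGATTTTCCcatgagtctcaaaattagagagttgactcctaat
Gbp5 and Tm4sf1 each held 1 NF-κB and 1 ISRE match although they moved in opposite directions, Fam26f held 1 ISRE match, and Il6 held 1 NF-κB and 1 AP-1 match. A match of letters is no evidence of binding. A promoter was at hand for only 231 of the 300 fallen genes and 138 of the 184 risen genes (77% and 75%), under the 80% set as the minimum for such a check, so that a comparison of motif shares between them is void.

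The receptor and its adapters did not pass the test: 0 of 21 tested genes were called, with a median difference of -0.19 (all genes 0.03). With the replicate block or the slide as a random block in all 9 groups, 1 of the 21 was called lower. Tlr2 itself measured 15.92 and 14.15 in acute and 14.37, 14.16 and 14.51 in re-stimulated cells (difference -0.69 ± 0.53 SE, adjusted p = 0.533). The groups overlapped, and both were above naïve cells at 11.66, 12.17 and 13.32. Of the NF-κB subunits, kinases and inhibitors 2 of 22 fell and 0 rose (9.09% lower, against 2.57% lower and 1.58% higher over all genes), with a median of -0.55 and 19 below 0. Nfkb1, the p105/p50 subunit, measured 12.65 and 11.90 and 10.51, 10.67 and 10.73 (difference -1.64 ± 0.32 SE, adjusted p = 0.00939), and both of its tested probes fell. Rela, the p65 subunit, measured 15.88 and 15.03 and 14.31, 14.43 and 14.51 (difference -1.04 ± 0.28 SE, adjusted p = 0.0443). The re-stimulated arrays lay close together for both subunits, but neither call held throughout. That of Nfkb1 was lost without acute replicate 1, and that of Rela without acute replicate 1 or re-stimulated replicate 1 or 2 and under 10 of the 20 alternatives in all. The median of this list stayed below that of all probes in all 20 alternatives, with differences from it of -1.24 to -0.29. Alternatives that change only the other groups, the moderation or the fold minimum cannot move this median.

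Feedback inhibitors of the pathway were mostly not called, which does not show that they were equal. Nfkbia, the inhibitor IκBα, measured 17.44 and 16.84 and 16.43, 16.85 and 16.79 (adjusted p = 0.607). Socs3, which inhibits cytokine receptor signalling, measured 15.64 and 13.45 and 14.85, 14.62 and 14.85 (adjusted p = 0.942). Irak3, the inhibitory IRAK-M kinase, measured 12.96 and 13.31 and 13.57, 13.70 and 13.05 (adjusted p = 0.891), and Bcl3, an IκB-like nuclear regulator, 14.65 and 13.99 and 13.66, 14.19 and 14.35 (adjusted p = 0.865). The sign of the difference was not settled for Nfkbia, Bcl3 and Socs3, which turned it under at least 1 alternative. Of 24 tested negative regulators only Dusp6, a phosphatase of ERK kinases, was called (4.17% higher, all genes 1.58%). It rose from 8.001 and 8.85 to 10.97, 10.18 and 11.03 (adjusted p = 0.0259), with 11.72, 11.46 and 10.44 in naïve cells. The call was lost without acute replicate 1 or re-stimulated replicate 1.

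Among 33 tested cytokine genes 2 fell and 2 rose (6.06% each, all genes 2.57% and 1.58%), and the best known TLR cytokines were not called. The median of the 33 was -0.09 and ran from -0.80 to 0.53 over the alternatives. Tnf measured 16.97 and 15.87 in acute and 13.97, 13.99 and 15.49 in re-stimulated cells (difference -1.94 ± 1.01 SE, adjusted p = 0.318), and every re-stimulated array was below both acute arrays. Il12b, the p40 subunit of IL-12, measured 11.23 and 7.16 and 7.77, 7.502 and 6.06 (adjusted p = 0.256). Here acute replicate 1 stood apart from the other 4 arrays, and without acute replicate 3 Il12b was called (difference -4.12, adjusted p = 0.0318, the lowest over the alternatives, whose highest was 0.992). Il6 measured 12.15 and 9.91 and 13.01, 11.89 and 13.197 (adjusted p = 0.343), and Il1b, encoding IL-1β, 15.85 and 11.11 and 16.14, 14.84 and 14.89 (adjusted p = 0.357). For both, acute replicate 3 was the lowest array and acute replicate 1 lay within the range of the re-stimulated arrays. Without acute replicate 1 Il1b was called higher (difference 4.18, adjusted p = 0.0471), and without acute replicate 3 its difference was -0.56. Il10, encoding the anti-inflammatory IL-10, measured 7.92 and 8.90 and 9.07, 9.18 and 9.26 (adjusted p = 0.810), and Ifnb1, encoding interferon β, 6.67 and 4.45 and 3.55, 3.38 and 4.71 (adjusted p = 0.353). Il10 was highest on the re-stimulated arrays, while Ifnb1 was well above background on only 1 of them.

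Of these 6 cytokine genes 4 were higher in re-stimulated than in naïve cells. The re-stimulated mean exceeded the naïve mean by 9.75 for Il6 (adjusted p = 1.11e-06), 9.27 for Il1b (adjusted p = 3.85e-06), 3.82 for Tnf (adjusted p = 0.00586) and 3.78 for Il12b (adjusted p = 0.00486). For Il6 and Il12b only 1 of the 3 naïve arrays was well above background, so that these are differences of the measured values and no exact sizes. That of Il12b lost its call with normexp background correction (1.45, adjusted p = 0.191) and with all 27 arrays (3.71, adjusted p = 0.107). For Il10 the difference was 2.95 and did not pass the test (adjusted p = 0.0624), although it did under 4 of 18 alternatives, among them without naïve replicate 3 (4.06, adjusted p = 0.0142) and with the replicate block (adjusted p = 0.026), nor did it for Ifnb1, at 0.88 (adjusted p = 0.482). Naïve replicate 3 was itself high for Tnf, at 13.44 against 8.998 and 9.53 on the other naïve arrays, and for Il10, at 8.45 against 4.73 and 5.49.

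The cytokine genes that were called moved both ways. Il15, a growth factor of lymphocytes, measured 10.64 and 7.28 and 5.98, 6.02 and 6.25 (difference -2.88 ± 0.69 SE, adjusted p = 0.0268), and Il18, of the IL-1 family, 9.52 and 9.18 and 7.39, 7.43 and 7.74 (difference -1.83 ± 0.33 SE, adjusted p = 0.00596). The acute arrays of Il18 lay close together and those of Il15 did not. Both calls were lost without acute replicate 1, and that of Il15 also without re-stimulated replicate 1 or 2. Il12a, the p35 subunit of IL-12, was not well above background on any acute or naïve array and measured 5.98, 5.44 and 5.89 on the re-stimulated arrays, at least 4.99-fold higher than in acute cells (adjusted p = 0.000987). Its difference ran from 0.74 to 2.71 over the 20 alternatives, so that this bound did not hold under all of them. The other rise was that of Ereg. Of 23 tested chemokines 2 fell and 0 rose (8.70% lower, all genes 2.57%), while the median was 0.40, with 12 above 0, and ran from -0.99 to 1.22 over the alternatives. Ccl9 measured 17.22 and 15.96 and 14.97, 15.03 and 14.47 (adjusted p = 0.0361), and Cx3cl1, the membrane-bound fractalkine, 11.17 and 9.67 and 8.200, 9.46 and 8.39 (adjusted p = 0.0459).

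Among 24 immediate early and AP-1 genes, 4 fell and 1 rose (16.7% and 4.17%, all genes 2.57% and 1.58%), with a median of 0.01. Irf1, a transcription factor of the interferon response that is counted with them, measured 14.94 and 13.51 in acute and 11.14, 11.44 and 12.46 in re-stimulated cells (difference -2.54 ± 0.42 SE, adjusted p = 0.00355). Maff, Klf6 and Jund, which encode transcription factors, fell by 1.44, 1.26 and 0.98. Fos measured 8.62 and 9.66 in acute cells and 11.16, 11.34 and 11.39 in re-stimulated cells (adjusted p = 0.0139), with 11.52, 12.02 and 10.46 in naïve cells. Fos thus rose where its AP-1 partner Jund fell, but whether the call of Jund holds without an array is not reported here.

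Of 45 type I interferon response genes 2 fell and 2 rose (4.44% each, against 2.57% and 1.58% of all genes), with a median of -0.43. Over the alternatives 0 to 5 fell and 0 to 4 rose, and the median was 0.11 without acute replicate 1. Zbp1, a sensor of nucleic acids, measured 11.90 and 10.88 in acute and 13.71, 13.54 and 13.83 in re-stimulated cells (difference 2.30 ± 0.42 SE, adjusted p = 0.00609), and 1 of its 2 tested probes was called. Irf7, which drives interferon transcription, measured 11.25 and 9.83 and 12.60, 12.99 and 12.25 (adjusted p = 0.0384). Ifi203, of the interferon-inducible p200 family, measured 13.59 and 11.18 and 9.87, 10.48 and 10.91 (adjusted p = 0.0480), with 2 of 4 probes called, and Gbp5 is described above. Naïve cells measured 11.74, 12.55 and 10.37 for Irf7 and 12.02, 12.52 and 11.15 for Ifi203.

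Antimicrobial, scavenger and pattern receptor genes gave 3 rises and 1 fall among 29 tested (10.3% and 3.45%, all genes 1.58% and 2.57%). Hp, the haemoglobin-binding haptoglobin, rose with Cfb and Slpi, from 13.35 and 12.31 to 16.59, 15.64 and 15.42 (adjusted p = 0.0361). Mrc1, the mannose receptor CD206, measured 11.22 and 11.05 in acute and 7.78, 9.30 and 6.70 in re-stimulated cells (difference -3.21 ± 0.68 SE, adjusted p = 0.0139), with 12.001, 12.62 and 11.35 in naïve cells. Mrc1 was lower on every re-stimulated array than on any acute or naïve array. Among 31 genes of mediator synthesis and alternative activation 2 rose and 2 fell (6.45% each). Ass1, argininosuccinate synthase, which rebuilds arginine, rose from 12.36 and 11.77 to 14.88, 13.82 and 14.72 with both of its probes called (adjusted p = 0.00698). Mmp12, the macrophage metalloelastase, fell from 13.64 and 12.65 to 10.89, 10.68 and 11.03 (adjusted p = 0.0167), and Plau, the urokinase plasminogen activator, from 7.74 and 7.09 to 3.30, 5.37 and 5.501 (adjusted p = 0.0269).

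Surface and processing molecules of antigen presentation, with Icam1 and Cd44, gave 3 falls and 0 rises among 23 tested (13% lower, all genes 2.57%). Beside Cd83 these were Icam1, the ligand of LFA-1, from 13.17 and 12.04 to 10.15, 10.40 and 10.86 (adjusted p = 0.0396), and Cd44, the hyaluronan receptor, from 13.72 and 13.15 to 11.91, 11.85 and 12.43 (adjusted p = 0.0146), with 2 of its 4 tested probes called. The re-stimulated mean of Icam1 was above that of naïve cells (adjusted p = 0.0499), but the arrays overlapped, with 8.03, 8.55 and 10.54 in naïve cells.

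Of 26 genes of glycolysis and the HIF-1 response 2 rose and 2 fell (7.69% each, all genes 1.58% and 2.57%), and 23 were above 0 with a median of 0.52. Pgk1, phosphoglycerate kinase, measured 15.21 and 15.40 in acute and 16.43, 16.12 and 16.49 in re-stimulated cells (adjusted p = 0.0284), and Eno1, the main enolase of macrophages, 16.13 and 15.90 and 17.24, 16.68 and 16.67 (adjusted p = 0.0273). The array design places these probes on chromosomes 3 and 2, while the genes lie on chromosomes X and 4, so that which copy of the sequence was measured is uncertain for both rises. Eno2, the other enolase tested, went the other way, from 10.95 and 10.15 to 8.09, 7.75 and 9.26 (adjusted p = 0.00709), as did Pfkp, a phosphofructokinase, by -0.95 (its other tested probe, at -0.33, was not called). Of 27 genes of cholesterol synthesis and efflux 2 rose and 1 fell (7.41% and 3.70%, all genes 1.58% and 2.57%). Pmvk and Mvk, successive kinases of the mevalonate pathway, rose by 1.13 and 1.03 with both of their probes called, and Srebf2, the transcription factor that drives that pathway, fell by 1.05 (adjusted p = 0.0142) by 1 of its 2 probes, the other having a difference of 0.12. The 43 tested subunits of the respiratory chain gave 0 calls, with 39 above 0 and a median of 0.20. Relative to all probes the medians of these 3 lists were positive in all 20 alternatives, at 0.08 to 0.80, 0.07 to 0.96 and 0.11 to 0.35. Alternatives that change only the other groups, the moderation or the fold minimum cannot move these medians.

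Genes of DNA replication and mitosis were the list with the lowest median among the lists of function, at -0.69, with 32 of 40 below 0, 4 fallen (10.0%, all genes 2.57%) and 0 risen. With the replicate block 12 fell, with the slide as a random block 10 and without naïve replicate 3 8, against 0 without acute replicate 1 and 1 without re-stimulated replicate 1 or 3. Ccnb2, a mitotic cyclin, measured 11.26 and 10.47 and 8.48, 9.35 and 6.90 (difference -2.62 ± 0.68 SE, adjusted p = 0.0373). Cdc20, an activator of the anaphase-promoting complex, measured 10.30 and 9.47 and 8.09, 8.91 and 7.24 (adjusted p = 0.0486), and Mki67, the proliferation marker Ki-67, 12.59 and 11.29 and 10.17, 10.40 and 9.82 (adjusted p = 0.0302). Mad2l1, of the spindle checkpoint, fell by 1.25. For Ccnb2 and Cdc20 replicate 3 was lowest in both groups and in naïve cells, at 11.68, 11.91 and 10.31 and 10.75, 10.87 and 9.496. Ccnb2 and Cdc20 were not called without acute replicate 1 or 3 or without re-stimulated replicate 1 or 3. The median of the list lay below that of all probes in all 20 alternatives, some of which cannot move it, with differences from it of -0.89 to -0.33.

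Many calls of these lists were lost when an array was left out. The counts here cover 32 called genes of the lists that are not among the largest changes. Hp, Cd44, Klf6, Jund, Mki67 and Mad2l1 were called too but are not among the 32. Whether their calls hold without an array is not reported here. Of the 32, 29 lost their call without acute replicate 1, 23 without re-stimulated replicate 1 and 13 without acute replicate 3. Without re-stimulated replicate 2 the number lost was 11, and without re-stimulated replicate 3 it was 6. Il12a was the only one of the 32 to keep its call whichever of these arrays was left out. Ass1 and Zbp1 lost theirs only without acute replicate 3, and Nfkb1, Il18, Irf1, Eno2 and Fos only without acute replicate 1. A lost call was not always a smaller difference: over all 20 alternatives that of Dusp6 ran from 1.88 to 2.72, that of Fcgr1 from 1.96 to 2.94 and that of Ass1 from 2.12 to 2.89, while that of Pfkp ran from -1.08 to -0.15.

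**Figure D3:**
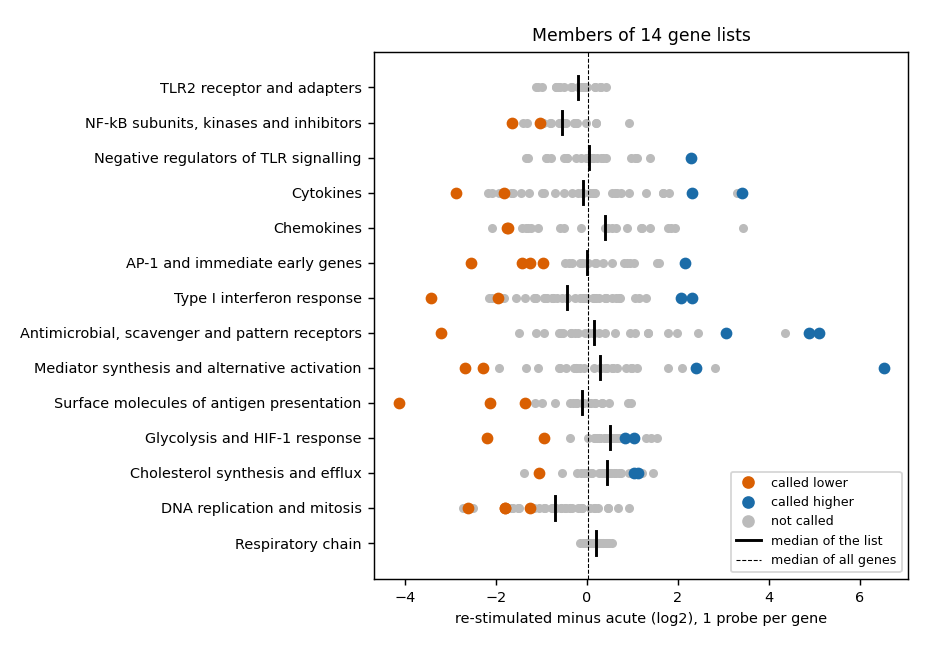
Difference between re-stimulated and acute cells (log2, horizontal axis) for the tested members of 14 gene lists, 1 point per gene, with members called lower in orange, called higher in blue and the others in grey. Black bars mark the median of each list and the dashed line the median of all genes (0.03); the median of the DNA replication list (-0.69) lies farthest to the left.

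Markers of the labelled cell type were present throughout. All 10 macrophage markers were well above background on all 5 arrays, led by Csf1r at 18.06 and 17.996 in acute and 18.30, 18.01 and 17.996 in re-stimulated cells, and the log2 of their summed intensity was 20.04 and 19.91 on the acute and 19.96, 19.78 and 19.90 on the re-stimulated arrays. Of these markers Cd68, a lysosomal glycoprotein, fell from 17.501 and 16.80 to 15.94, 15.70 and 16.44 (adjusted p = 0.0340). Fcgr1, the high-affinity IgG receptor, rose from 10.11 and 9.94 to 12.66, 12.61 and 11.36 (adjusted p = 0.0123), with 12.90, 13.36 and 11.59 in naïve cells. In RNA of whole cultures fewer cells of a type and less RNA per cell cannot be told apart.

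Markers of neutrophils and their progenitors varied between cultures more than between groups. Of 10 on the array 8 were tested and 0 called, 2 were above background on all 5 arrays, and 0 were below it on all 5. Mpo, the granule enzyme myeloperoxidase, measured 10.41 and 2.67 in acute and 5.65, 8.38 and 3.22 in re-stimulated cells. Ltf, lactoferrin, measured 11.84 and 4.02 and 8.92, 10.62 and 3.33. Ly6g, the surface marker of neutrophils, measured 8.91 and 2.95 and 8.96, 10.02 and 2.38. Replicate 3 was the lowest array of its group for each of the 3 genes. The log2 of the summed intensity of the list, with Elane the most abundant, was 14.51 and 12.11 in acute and 12.91, 13.09 and 11.83 in re-stimulated cells. The part of these markers in the calls was not tested.

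Markers of other cell types were measured too. Of 7 dendritic cell markers Xcr1 and Cd209a were not above background on any array, while Itgax, encoding CD11c, which macrophages also express, fell from 13.40 and 12.99 to 11.32, 10.91 and 11.78 (adjusted p = 0.0269). The summed level of the list, led by Siglech, was 16.49 and 16.22 in acute and 15.37, 15.19 and 15.95 in re-stimulated cells. Of 10 lymphocyte markers 4 (Cd3d, Cd8a and Ms4a1 among them) were not above background on any array and 0 of 4 tested were called, with summed levels of 11.86 and 11.95 against 12.35, 12.12 and 11.52, led by Cd4. Of 8 fibroblast markers Col1a1, Col3a1 and Pdgfra were not above background on any array. Thy1, a weak signal not above background on either acute array, was called higher by at least 3.02-fold. That call was lost under 10 of 17 alternatives. The difference of Thy1 ran from 0.44 to 1.88 over them, so that the bound did not hold under all. The summed level of the fibroblast list, led by Dcn, was 8.90 and 8.32 against 8.68, 8.64 and 8.24. Mast cell, eosinophil and basophil markers, led by Prg2, summed to 9.90 and 7.78 against 7.81, 7.88 and 6.88, with Mcpt4, Fcer1a and Epx not above background on any array and 0 of 3 tested called. Erythroid and platelet markers, led by Hba-a1, summed to 5.83 and 6.25 against 6.62, 6.62 and 5.51, with 4 of 7 (Hbb-b1, Alas2 and Gp1ba among them) not above background on any array and 0 of 1 tested called.

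**Figure D4:**
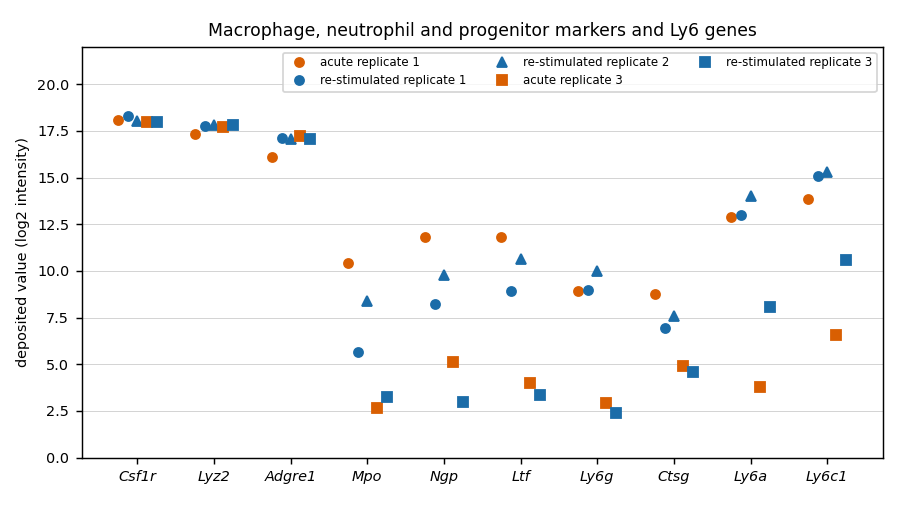
Deposited log2 intensity (vertical axis) of 3 macrophage markers (Csf1r, Lyz2, Adgre1), 5 neutrophil and progenitor markers and 2 Ly6 genes on each of the 5 arrays, acute in orange and re-stimulated in blue, with the replicate number as the shape. Csf1r lies close to 18 on all arrays, while Mpo runs from 2.67 to 10.41 and is lowest in the 2 arrays of replicate 3.

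The last question was whether the change on re-stimulation was that of Pam3CSK4 or of other ligands too, for which the same difference was taken for CpG (TLR9), Poly(I:C) (TLR3) and LPS (TLR4) in the same fit. None of these comparisons shares arrays with that of Pam3CSK4, although they share slides, apart from acute LPS, which was on slides and scans of its own. Within LPS, re-stimulation therefore cannot be told apart from slide and scan. The probes tested were the same, those that passed the background filter in a Pam3CSK4 group. Probes expressed only with another ligand were thus not tested, and the counts and shares below hold for this set alone. CpG re-stimulation gave 855 probes lower and 1042 higher than acute CpG (3.36% and 4.10% of those tested), Poly(I:C) 1506 and 1924 (5.92% and 7.57%), and LPS 3795 and 4782 (14.9% and 18.8%, together 33.7%). Of the 532 probes that fell with Pam3CSK4, 407 also fell with CpG, which is 76.5% of the former and 47.6% of the latter, and of the 442 that rose 340 did (76.9% and 32.6%). With Poly(I:C) these were 239 fallen (44.9% and 15.9%) and 133 risen (30.1% and 6.91%). With LPS they were 317 fallen (59.6% and 8.35%) and 333 risen (75.3% and 6.96%), where slide and re-stimulation cannot be told apart. The median difference of the 532 was -1.64 with Pam3CSK4, -1.38 with CpG and -0.91 with Poly(I:C), and that of the 442 was 1.15, 1.11 and 0.49. With LPS, under the same limit of slide and re-stimulation, these medians were -1.13 and 1.34.

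For the named genes the measured changes can be set side by side. Tm4sf1 had differences of 4.78 with Pam3CSK4, 4.11 with CpG and 0.45 with Poly(I:C), and Vcam1 -5.31, -4.53 and -0.59. Tested directly, the change with Pam3CSK4 minus that with Poly(I:C) was called for neither Tm4sf1 (adjusted p = 0.0921) nor Vcam1 (adjusted p = 0.231). With LPS, for which slide and re-stimulation are confounded, the differences were 4.33 for Tm4sf1 and -3.53 for Vcam1. For Cfb the differences were 5.11, 4.57 and 5.03, for Ly6i 4.66, 4.17 and 4.44, and for Mamdc2 -4.97, -4.87 and -5.88. Of the 12 largest falls 8 were called lower with CpG and 5 with Poly(I:C), and of the 12 largest rises 10 and 6.

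The differences between ligands were also tested themselves. Tested as the change with Pam3CSK4 minus the change with another ligand, 1 of 25430 probes differed from CpG (0.00393%) and 38 from Poly(I:C) (0.149%), 21 higher (0.0826%) and 17 lower (0.0669%) with Pam3CSK4. These counts moved with the setting, for CpG from 0 to 48 and for Poly(I:C) from 6 with no filter on dim probes and 19 to 115 with an array left out to 140 with the replicate block and 309 with the slide as a block. The standard error of such a difference had a median of 0.42, so that a miss does not show that the ligands act alike. Il12a was the sole member of the 67 named genes among the 38. It was not called with Poly(I:C), whose arrays measured 2.54, 2.32 and 2.67 in acute and 2.13, 2.03 and 2.57 in re-stimulated cells, and the difference of the measured changes was 2.59 ± 0.43 SE (adjusted p = 0.0144, from 0.00639 to 0.0573 over the alternatives, 2 of 10 of which lost the call). Since the probe was not well above background on the acute Pam3CSK4 arrays, that difference gives a direction and no exact size. The probe passed the filter only through the re-stimulated Pam3CSK4 arrays, where it was high, so that the adjusted p is no independent support. Against LPS 2410 probes differed (9.48%), 947 higher (3.72%) and 1463 lower (5.75%), but acute LPS was on slides and scans of its own. Slide, scan and re-stimulation cannot be told apart within LPS, nor slide and ligand in this difference.

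**Figure D5:**
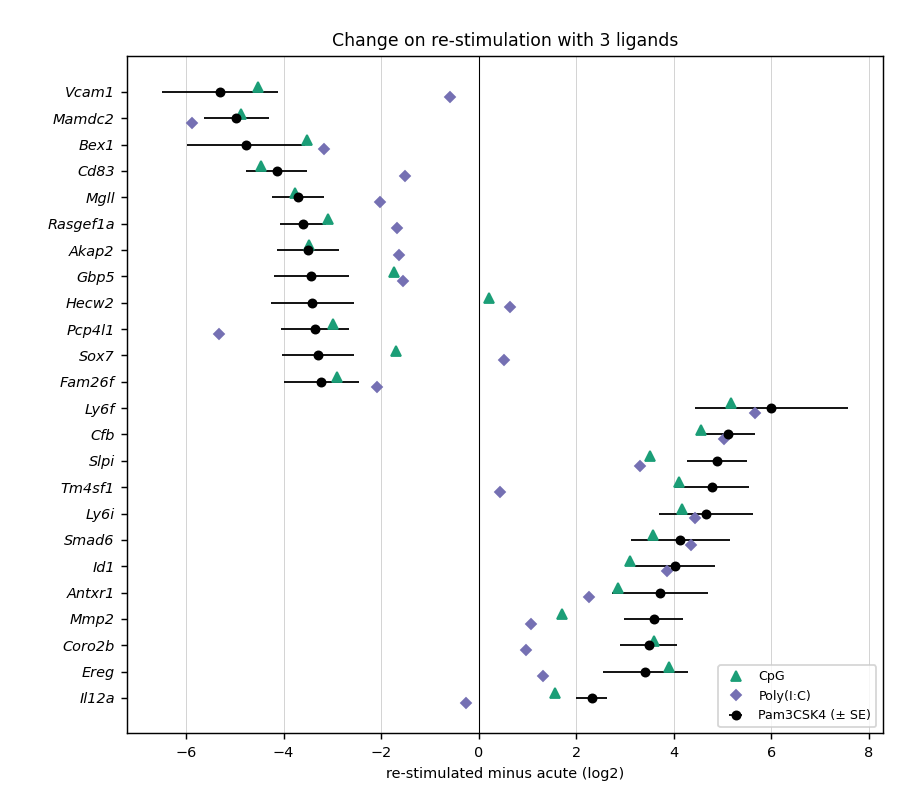
Re-stimulated minus acute difference (log2, horizontal axis) of the 12 largest falls, 11 of the 12 largest rises and Il12a with Pam3CSK4 (black circles, bars are ± 1 SE), CpG (green triangles) and Poly(I:C) (purple diamonds). CpG lies on the same side of 0 as Pam3CSK4 for all of these 23 largest changes but Hecw2 (0.21), and Poly(I:C) for all but Hecw2 (0.65) and Sox7 (0.52).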

How the data were processed

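RNA of 27 BMDM cultures was hybridised to 1-colour Agilent mouse arrays. The authors deposited the scanner intensity of every spot and, for 25 arrays, log2 values after RMA background correction and quantile normalization with limma. The deposited log2 values were used here, with the background marks of the scanner files. Made again from the intensities, they differed by a median of 0.04. Gene names are those of the array files (16026 of the 25430 tested probes matched a RefSeq transcript, 1684 under another symbol).

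Groups and replicate numbers came from the labels, and 0 columns were left over. A linear model of 9 group means was fitted with limma 3.58.1 in R 4.3.3 (16 residual degrees of freedom, empirical Bayes moderation, Benjamini-Hochberg adjustment over the probes tested), without a block. All adjusted p are from limma. The fit was tested on simulated data with independent arrays and no slide effect, so that what shared slides do to the calls was not tested by it. Each replicate number is 1 slide, and the sources describe independent experiments, at one place from different mice and at another from pooled marrow. Deviations from the group means correlated with r of 0.27 and 0.27 between same-numbered acute and re-stimulated Pam3CSK4 arrays. Over all groups the median r between same-numbered arrays was 0.23, 0.34 and 0.33 for replicates 1, 2 and 3, but the lowest pair of replicate 1 had -0.17 and that of replicate 2 0.04, so that the numbers were not taken to pair the samples, although arrays of 1 slide tended to deviate together. Blocked fits were alternatives, beside other samples, background corrections, scalings, filters and each array left out.

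Text names the 12 largest falls and 12 largest rises among called genes whose groups do not overlap and whose differences on both slides have the sign of the call, 12 genes of the TLR response, and up to 4 called members of each of 21 gene lists, 1 probe per gene (the brightest tested), which makes 67 genes. Of these, 1 of the largest rises, like 2 marker genes, is not reported here by name, but stays in the counts. Others named are members of these lists or families, and their calls under the alternatives are not reported here. "At least" folds set the brighter group against the dimmest signal well above background on each array. For Hecw2, Il12a and Thy1 this bound was equal to the fold of the 2 group means. The members, lists and tests were chosen with earlier results of these data known.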

Additional observations from a re-analysis of the deposited data

Results flagged for a closer look

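The tests of a difference between ligands are the results to look at again. The change on re-stimulation with Pam3CSK4 differed from that with CpG for 1 probe, from that with Poly(I:C) for 38 and from that with LPS for 2410, each by a limma contrast with an adjusted p under 0.05 and at least 1.5-fold. Within LPS, re-stimulation cannot be told apart from slide and scan. The probe that differed from CpG has no gene symbol and was chosen after its values were seen. It measured 8.25 and 7.17 in acute Pam3CSK4 cells and 3.46, 3.65 and 3.01 in re-stimulated cells, against 3.79, 2.95 and 3.41 and then 3.73, 3.02 and 3.81 with CpG, a difference of the measured changes of -4.47 (adjusted p = 0.0347). That has no exact size, since the probe was not well above background on any re-stimulated Pam3CSK4 array. The probe passed the filter only through the acute Pam3CSK4 arrays, where it was high. The filter looked at no CpG array, so that the adjusted p is no independent support for a difference between ligands. Under 4 of 10 alternatives (no filter on dim probes, or any 1 re-stimulated Pam3CSK4 array left out) no probe differed from CpG, so that this call was lost. Only the acute Pam3CSK4 arrays were high for it among the Pam3CSK4, CpG and Poly(I:C) arrays. Il12a differed from Poly(I:C), with a difference of the measured changes of 2.59, which has no exact size because the probe was not well above background on the acute Pam3CSK4 arrays. Its probe passed the filter only through the re-stimulated Pam3CSK4 arrays, where it was high, so that this test is no independent support either. The call was lost under 2 of 10 alternatives (adjusted p up to 0.0573).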

How the results depend on the processing

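The signs of the named differences held with few exceptions, while the number of calls moved with the fit, the arrays, the scaling and the filter. The held signs are partly given by design. The largest changes were chosen with groups that do not overlap, so that leaving out an array could not turn their sign. Alternatives that change only the other groups, the moderation or the fold minimum keep the same differences. Counts lower and higher were 0 and 0 with the 5 arrays alone, 0 and 0 with these and the replicate block, 923 and 866 with the replicate block in all 9 groups, 1078 and 1037 with the slide as a random block, and 350 and 270 without LPS. They were 65 and 85 with median scaling, 83 and 128 with all 27 arrays (median of all probes 0.65), and 207 and 146 with no filter on dim probes. Leaving out 1 array gave 133 to 791 lower and 67 to 621 higher. The other processing alternatives (values made again, normexp, 75th percentile scaling, filter on all arrays, moderation, no fold minimum) kept both counts within 1.5 times. Differences from CpG numbered 2 with the slide as a block, 0 with no filter and 0 to 48 with an array left out. Those from Poly(I:C) numbered 140 with the replicate block, 309 with the slide, 6 with no filter and 19 to 115, and those from LPS 953 with no filter and 919 to 2793. Differences from LPS numbered 3498 with the replicate block in all 9 groups and 3352 with the slide as a random block. Where acute cells kept 1 array, it was assumed to vary like the other groups. The cause of these shifts was not tested.

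For single genes 1165 of 1545 alternative values kept the side of the threshold and the sign, 365 lost the call, 6 gained it and 9 turned their sign. Leaving out 1 array gave differences of -1.57 to 0.19 for Tlr2 and -0.58 to 0.077 for Bcl3, both positive without acute replicate 1, and of -0.56 to 4.18 for Il1b and -0.87 to 1.32 for Socs3, both negative without acute replicate 3. With median scaling it was 0.11 for Nfkbia and 0.24 for Bcl3. With all 27 arrays it was -0.19 for Socs3, 0.66 for Maff and 0.037 for Eno2. Dim probes limit the rest: 36 called probes were not above background on any acute array and 54 on any re-stimulated array.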

Other observations

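Families of genes around the largest changes were chosen after these values were seen and most of them because they hold called genes, so that their counts are a description, beside 2.57% lower and 1.58% higher over all genes. Of 7 tested Ly6 genes Ly6f and Ly6i were called, and 6 were above 0, with a median difference of 3.36. Ly6a measured 12.88 and 3.77 in acute and 12.97, 14.03 and 8.04 in re-stimulated cells and Ly6c1 13.87 and 6.59 and 15.06, 15.30 and 10.59, with replicate 3 lowest in both groups, and their differences of 3.36 and 3.42 were not called. Of 7 tested Smad genes the inhibitory members Smad6 and Smad7 were called and the other 5 were not, with a median of 1.17 over the family. Smad7 measured 4.96 and 3.90 and 6.87, 7.75 and 8.24 (adjusted p = 0.0457). Id1 was called, while Id2 measured 14.56 and 13.48 and 13.73, 14.17 and 14.27 and Id3 13.62 and 10.59 and 12.54, 12.87 and 12.98. None of 6 tested TGF-β and BMP ligand genes was called, and the nearest was Gdf15, at 13.37 and 13.93 and 9.39, 10.22 and 11.95 (adjusted p = 0.0843).

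Of 10 matrix metalloproteinase genes, with a median of -0.13, Mmp12 fell and Mmp2 rose, and Mmp13, at 13.44 and 7.78 in acute and 9.27, 9.29 and 7.46 in re-stimulated cells, was high on acute replicate 1 alone. Of 7 guanylate-binding proteins only Gbp5 was called, while all 7 were below 0, with a median of -0.92. Gbp2, at 13.44 and 11.88 and 11.30, 10.501 and 13.43, and Gbp3, at 12.25 and 10.23 and 9.18, 9.41 and 11.70, had their highest re-stimulated values in replicate 3, as Gbp5 did. Of 8 genes of the IL-1 family and its receptors 6 were above 0, with a median of 1.43, and Il18 alone was called, as lower. The arrays of a group lay apart for several of them, with Il1a at 10.27 and 6.08 and 10.16, 8.55 and 9.69 and Il1f6 (an older name of a member of the IL-36 branch) at 8.33 and 2.28 and 6.90, 6.06 and 6.17, where acute replicate 3 was lowest.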
